A study of Homo sapiens with 8 samples.

Results

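Regions of the H9 genome that held a SOX2 peak and an OCT4 peak but no NANOG peak are described here. Peaks of 6 lists that shared at least 1 bp were merged, and a merged region was kept when it held peaks of the H9 SOX2 and H9 OCT4 lists and none of the H9 NANOG list, whatever the other cell line showed. The members were therefore chosen by the measured peak calls in H9. They number 1872 of 55521 merged regions with a H9 peak, a share of 3.37%, and of 148059 merged regions in all. The study mapped the 3 factors by chromatin immunoprecipitation with sequencing (ChIP-seq) in 2 human lines, for which the labels name no treatment or genetic change. H9, an embryonic stem cell line, was derived from a human embryo at the blastocyst stage, and NT2/D1 from a human embryonal carcinoma, a tumour whose stem cells resemble those of the early embryo. With a single library for every factor in either line, a difference between H9 and NT2/D1 has no replicate check, and none is tested. The IgG control libraries entered only through the authors' peak calling. Peak lists hold no expression values, so the cell types were not checked against marker levels.

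SOX2 and OCT4 are transcription factors that bind DNA side by side, as a heterodimer, at many enhancers of pluripotent cells. NANOG, a homeodomain factor, is found at many of the same enhancers, and the 3 factors regulate their own genes and each other's. SOX2 is also used in neural progenitors without the other factors, and OCT4 has a role in the germ line.

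The H9 libraries had 72186968 (SOX2), 77649240 (OCT4) and 54046559 (NANOG) unique tags, and those of NT2/D1 had 23160564, 10218752 and 19669139, per the file headers. The H9 lists held 19349, 29575 and 33895 peaks, and the NT2/D1 lists 38423, 46169 and 34208. NANOG was thus the shallowest H9 library, and a NANOG peak too weak to be called counts here as no peak. For the NT2/D1 OCT4 and NANOG libraries the source name of each gives the other's factor, while title and description give the factor used here. Every statement on these NT2/D1 lists rests on the titles, and with the source names the 2 lists change places.

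The promoters of 5 genes whose transcription start site (TSS) lay inside a member region show what sequence these sites can carry. The authors' distance of 0 gave the overlap, and 55 genes had such a TSS. RefSeq promoters, from 250 bases before to 50 bases after the start (assembly GRCh38.p14), were at hand for 46 of them. The 5 shown were chosen after their values were seen, among genes whose promoter held a SOX motif. They encode a histone H4 (H4C9), a transcription factor of the RFX family (RFX4), a partner in double-stranded RNA binding (ILF2), a stress-response protein that restrains growth (GADD45G) and a Polycomb-associated protein (MTF2). SOX proteins bind AACAAT and close relatives of it such as CATTGT, and a further relative is ACAAAG. Capitals mark these 3 motifs on either strand, and the strand shown is that of the gene.
H4C9: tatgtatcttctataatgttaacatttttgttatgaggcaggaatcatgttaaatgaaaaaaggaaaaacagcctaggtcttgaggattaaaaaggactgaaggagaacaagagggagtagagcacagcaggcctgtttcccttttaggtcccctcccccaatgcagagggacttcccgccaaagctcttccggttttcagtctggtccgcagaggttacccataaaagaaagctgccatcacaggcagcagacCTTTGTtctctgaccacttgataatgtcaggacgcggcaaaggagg
RFX4: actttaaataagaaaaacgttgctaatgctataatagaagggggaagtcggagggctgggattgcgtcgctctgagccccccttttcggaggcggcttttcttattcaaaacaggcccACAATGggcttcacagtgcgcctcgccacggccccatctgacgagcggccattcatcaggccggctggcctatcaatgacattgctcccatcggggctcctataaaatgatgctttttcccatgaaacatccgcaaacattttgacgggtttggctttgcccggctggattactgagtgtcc
ILF2: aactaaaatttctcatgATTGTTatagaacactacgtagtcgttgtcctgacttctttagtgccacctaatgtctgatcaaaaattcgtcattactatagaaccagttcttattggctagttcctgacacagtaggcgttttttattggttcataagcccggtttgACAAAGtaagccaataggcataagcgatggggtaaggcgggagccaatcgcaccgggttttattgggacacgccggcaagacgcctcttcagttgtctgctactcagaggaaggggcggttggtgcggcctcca
GADD45G: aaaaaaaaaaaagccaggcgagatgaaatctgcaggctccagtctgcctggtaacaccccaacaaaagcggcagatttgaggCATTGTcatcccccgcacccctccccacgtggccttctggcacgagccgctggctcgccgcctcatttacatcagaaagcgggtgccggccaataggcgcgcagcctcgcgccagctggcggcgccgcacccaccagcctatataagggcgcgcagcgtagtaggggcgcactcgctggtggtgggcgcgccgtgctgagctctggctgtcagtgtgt
MTF2: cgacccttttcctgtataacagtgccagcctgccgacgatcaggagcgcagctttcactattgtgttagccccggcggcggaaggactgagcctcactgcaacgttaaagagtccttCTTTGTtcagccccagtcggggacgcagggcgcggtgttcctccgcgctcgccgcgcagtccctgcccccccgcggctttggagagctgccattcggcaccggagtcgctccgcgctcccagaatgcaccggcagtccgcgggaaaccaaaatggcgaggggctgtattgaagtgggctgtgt
In GRCh38.p14 these windows are chr6:27139032-27139331 (H4C9, plus strand), chr12:106582754-106583053 (RFX4, plus), chr1:153670944-153671243 (ILF2, minus), chr9:89604762-89605061 (GADD45G, plus) and chr1:93079033-93079332 (MTF2, plus). The H4C9 region had a fold enrichment over background of 7.13 for SOX2 and 5.12 for OCT4 in H9. The RFX4 region had 8.80 and 3.70, the ILF2 region 4.02 and 5.24, the GADD45G region 7.46 and 3.81, and the MTF2 region 17.4 and 4.50. SOX2 enrichment was above OCT4 enrichment in 4 of these 5 regions, but fold values of separate libraries are on separate scales.

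At least 1 of the 3 SOX motifs lay in 18 of the 46 promoters (39.1%, 95% interval 26.4 to 53.5), beside 29.4% of all 27305 RefSeq promoters. By motif, ACAAAG was in 12 of 46 (26.1%, against 16.0% of all promoters), CATTGT in 5 (10.9% against 11.0%) and AACAAT in 3 (6.52% against 10.3%). CATTGT and AACAAT differ and do not overlap as strings on the same strand, but ATTGTT, the reverse complement of AACAAT, shares bases with CATTGT. The octamer ATGCAAAT, the classical OCT4 letters, was in 0 of 46 (upper bound 7.71%) and in 1.80% of all promoters. By class it was in 9 of 152 promoters with all 3 factors (5.92%), 4 of 55 with SOX2 and NANOG but no OCT4 (7.27%) and 3 of 176 with OCT4 and NANOG (1.70%). CATTGT followed by ATGCAA on the same strand within 0 to 3 bases, the joined arrangement, was in 0 of 46. Promoters were joined to regions by gene only, so a window can lie at another TSS of its gene, outside the region. Whether each of the 46 windows lies inside its member region was not checked. These are matches of letters in short windows at promoters, and most member regions lie far from one.

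In H9 itself the members were of moderate strength. These values come from the lists that chose them and are given as a description. The median SOX2 peak of a member had 41.0 tags and a 5.03-fold enrichment, and the median OCT4 peak had 35 tags and a 4.88-fold enrichment. Within its list a peak was placed by its percentile, the share of the list's peaks with a score at or below its own. The median percentile was 44.1 for SOX2 and 63.8 for OCT4 in the members, against 75 and 81.2 in the 8196 regions with all 3 factors. In 1360 members (72.6%) the OCT4 percentile was at or above the SOX2 percentile. Only 22 members (1.18%) were in the upper 10% of the SOX2 list, against 22.5% of the regions with all 3 factors, and 167 (8.92%) were in the upper 10% of the OCT4 list, against 30.9%. At most 5% false discovery rate, as deposited, was reached by both peaks in 478 members (25.5%). It was reached by the SOX2 peak in 36.8% of the members, beside 46.2% of all peaks of the H9 SOX2 list. For the OCT4 peak the share was 55.3%, beside 39.0% of the H9 OCT4 list.

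The 2 peaks of a member sat close together, which the merging by overlap builds in to a large part. This holds also for the regions with all 3 factors, so the gaps are given as a description. The SOX2 and OCT4 summits were a median of 35 bp apart (quartiles 15.8 and 79.0), and in 1501 members (80.2%) they were within 100 bp. In the regions with all 3 factors the median gap was 29 bp, and 85.6% were within 100 bp. The OCT4 peak lay wholly inside the SOX2 peak in 1238 members (66.1%). Only 3 members joined SOX2 and OCT4 peaks that did not touch, through a NT2/D1 peak between them.

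**Figure D1:**
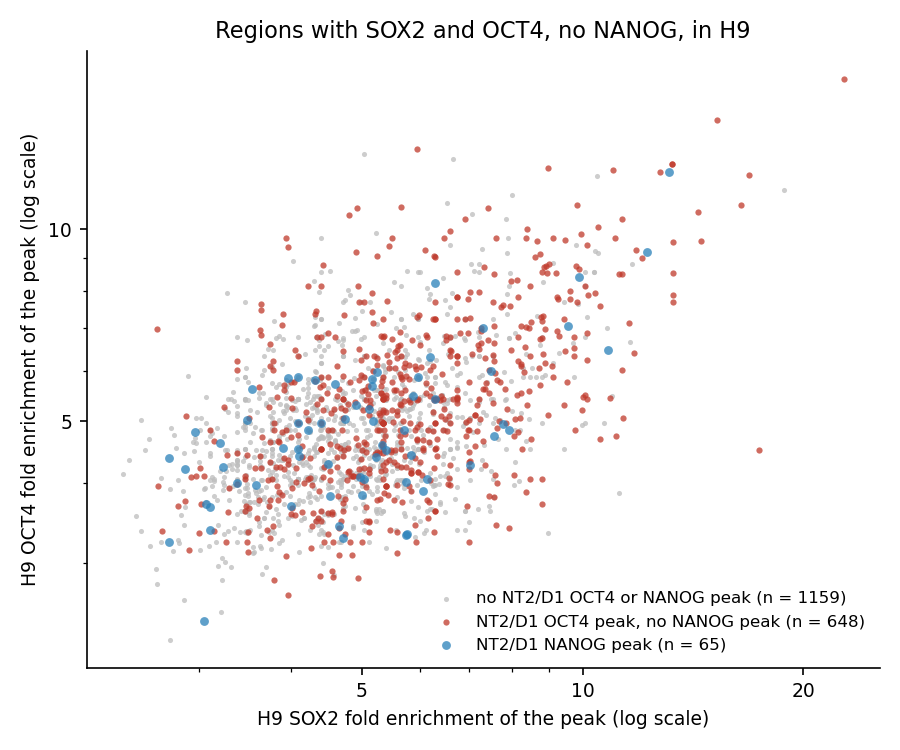
Each point is 1 of the 1872 members, by the authors' fold enrichment of its H9 SOX2 peak (horizontal, log scale) and H9 OCT4 peak (vertical, log scale). Red points (648) have a NT2/D1 OCT4 peak and no NT2/D1 NANOG peak, blue points (65) a NT2/D1 NANOG peak and grey points (1159) neither; red points are more common toward the upper right, and blue points lie throughout.

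The 3 strongest members by the lower of the 2 percentiles lay far from a TSS. The leading one, at chrX:34620798-34621664 (hg19), was 53.7 kb from the TSS of TMEM47, a membrane protein of cell junctions. It had 155 SOX2 tags (18.8-fold) and 95 OCT4 tags (11.5-fold) in H9, no NT2/D1 peak, and its nearest H9 NANOG peak was 32.8 kb away. The second, at chr8:40177238-40178025, was 166.0 kb from TCIM, with 126 SOX2 tags (22.7-fold) and 102 OCT4 tags (17.2-fold). It also had NT2/D1 peaks of SOX2 (8.71-fold) and OCT4 (11.6-fold). The third, at chr5:12657792-12662125, was 754 kb from CTNND2, a catenin of the adhesion complex, and held 375 SOX2 tags over a broad peak. Among the 15 strongest, 12 had a NT2/D1 OCT4 peak, 7 a NT2/D1 SOX2 peak and none a NT2/D1 NANOG peak. The shares of all members were 36.6%, 9.67% and 3.47% in that order, so few NANOG peaks could be looked for among 15. Of the 19 members with both peaks in the upper 10% of their lists, 1 had a NT2/D1 NANOG peak.

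Others of the 15 had the TSS of a gene of known function as the nearest, at 17.0 to 105.0 kb in those given here. A region 19.9 kb from KLF13, a Krüppel-like transcription factor, had 16.9-fold SOX2 and 12.2-fold OCT4 enrichment in H9 and a 26.1-fold OCT4 peak of 46.0 tags in NT2/D1. A region 17.0 kb from WSB1, a substrate receptor of a ubiquitin ligase, had 12.8-fold and 12.3-fold enrichment in H9 and a 32.6-fold OCT4 peak in NT2/D1. Near ATE1, an arginyltransferase, a region 36.2 kb away had 11.0-fold and 12.4-fold enrichment in H9 and a 16.5-fold OCT4 peak in NT2/D1. Near WEE1, the kinase that delays entry into mitosis, a region 54.3 kb away had 13.3-fold and 7.70-fold enrichment in H9. Its NT2/D1 peaks were weak, 6.39-fold for OCT4 (score 32.7) and 4.95-fold for SOX2 (score 31.1), where the lowest score of either list was 30. The region 105.0 kb from BMP5, a ligand of the bone morphogenetic protein pathway, had 9.10-fold and 8.86-fold enrichment in H9 and no NT2/D1 peak. The distances are to the nearest TSS the authors list, and a link between region and gene was not tested.

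No NT2/D1 peak was required of a member, but NT2/D1 peaks took part in the merging. With the 3 H9 lists merged alone, 36.5% of 1872 members had a NT2/D1 OCT4 peak and 3.53% a NT2/D1 NANOG peak. OCT4 was the NT2/D1 factor most often present. A NT2/D1 OCT4 peak lay in 686 members (36.6%, 34.5 to 38.9), beside 19.4% of all H9 regions. A NT2/D1 SOX2 peak lay in 181 (9.67%, 8.41 to 11.1), beside 8.48%, so the background is inside the interval. A NT2/D1 NANOG peak lay in 65 (3.47%, 2.73 to 4.40), beside 7.00%. Any NT2/D1 peak lay in 750 (40.1%), beside 24.5%. The bracketed 95% intervals cover counting error only. The most common NT2/D1 content of a member was no peak (1122 members, 59.9%), then OCT4 only (529, 28.3%) and SOX2 with OCT4 (119, 6.36%). NANOG only was found in 21, and all 3 factors in 19.

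Each class of H9 regions with a pair of factors lacks 1 factor, and the NT2/D1 share of that factor can be set side by side. Of the members, 3.47% had NT2/D1 NANOG, against 7.00% of all H9 regions. Of the 4236 regions with SOX2 and NANOG but no OCT4, 19.6% (18.4 to 20.8) had NT2/D1 OCT4, against 19.4%. Of the 3859 regions with OCT4 and NANOG but no SOX2, 8.14% (7.32 to 9.04) had NT2/D1 SOX2, against 8.48%. The missing factor was below its background for the members and within counting error of it for the regions without SOX2 or without OCT4. Whether these 3 departures differ from each other was not tested. The 7.00% is over all H9 regions, including those with a H9 NANOG peak. NT2/D1 NANOG was below it also in the other H9 classes without NANOG, at 1.90% with SOX2 alone and 2.49% with OCT4 alone. Without the widest 1% of peaks the members' NT2/D1 NANOG share was 6.14% (5.18 to 7.27). That interval holds the 7.00% found with all peaks, a background that was not recomputed. For summits within 200 bp the share was 5.26% (4.38 to 6.30). Membership changed in both settings. The first also dropped wide H9 NANOG peaks, so a region that had held one could count as a member. The second barred only a H9 NANOG summit within 200 bp, so a member could overlap a H9 NANOG peak.

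**Figure D2:**
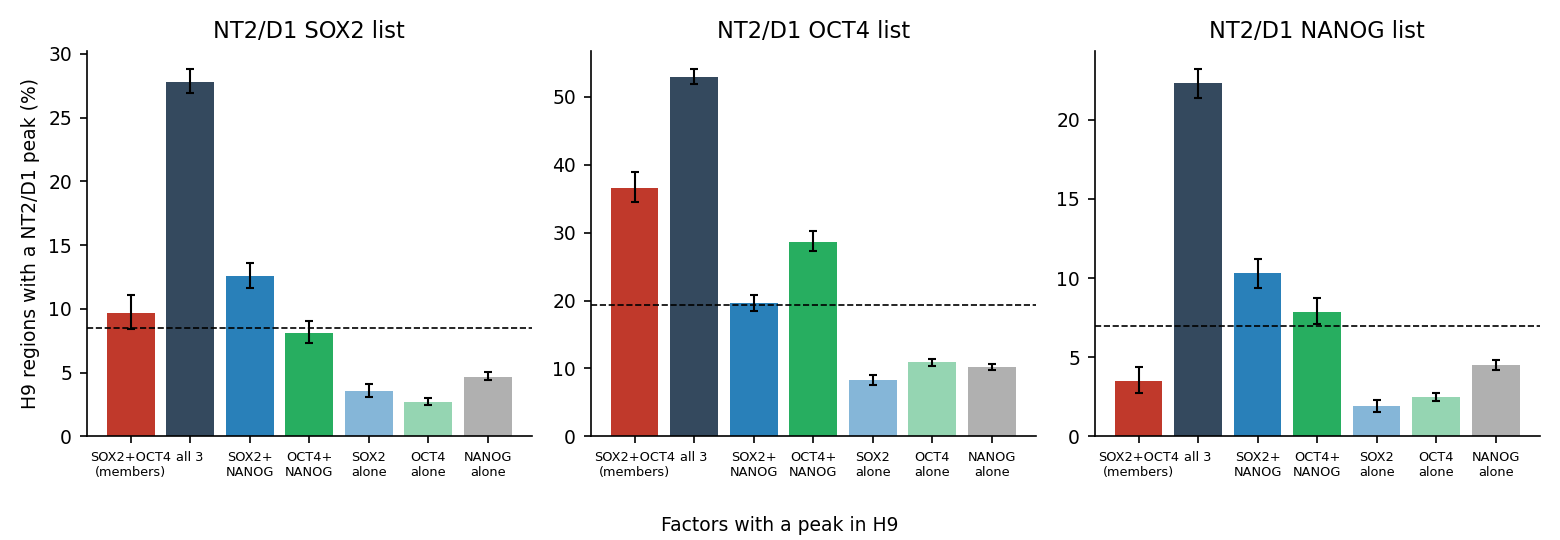
Bars give the share of H9 regions (%) that hold a peak of the NT2/D1 SOX2, OCT4 or NANOG list, by the factors with a peak in H9; error bars are 95% Wilson intervals and dashed lines the share among all 55521 H9 regions (8.48%, 19.4% and 7.00%). The members stand above the line for OCT4 (36.6%) and below it for NANOG (3.47%), and the vertical scales differ.

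Against the regions with all 3 factors, the members had fewer peaks of every NT2/D1 list. The shares were 36.6% against 53.0% for OCT4 (difference -16.4 points, -18.8 to -13.9), 9.67% against 27.8% for SOX2 (-18.2, -19.8 to -16.5) and 3.47% against 22.3% for NANOG (-18.8, -20.0 to -17.5). The classes also differed in H9 strength, as given above. Within deciles of the H9 SOX2 score they were -5.16 points for OCT4 (-7.77 to -2.55), -5.51 for SOX2 (-7.20 to -3.83) and -8.55 for NANOG (-9.85 to -7.25). Within deciles of the H9 OCT4 score they were -7.25, -12.5 and -14.0 points. All 3 stayed below 0 in either stratification.

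Against regions with SOX2 and NANOG but no OCT4, whose H9 SOX2 peaks were of like strength (median percentile 44.1 in the members and 44.7 there), the order depended on the factor. NT2/D1 OCT4 was more frequent in the members (36.6% against 19.6%, difference 17.1 points, 14.6 to 19.6), and NT2/D1 NANOG was less frequent (3.47% against 10.3%, -6.80, -8.00 to -5.52). Within deciles of the SOX2 score these differences were 17.2 and -6.72 points. Against regions with OCT4 and NANOG but no SOX2 the members again had more NT2/D1 OCT4 (36.6% against 28.7%, 7.91 points, 5.31 to 10.5) and less NT2/D1 NANOG (3.47% against 7.88%, -4.41, -5.56 to -3.17). The median H9 OCT4 percentile was 63.8 in the members and 53.5 there, and within deciles of the OCT4 score the differences were 4.83 (2.19 to 7.48) and -4.83 points (-6.15 to -3.51). Without the widest 1% of peaks this NANOG difference was -1.64 points (-2.95 to -0.249), and for summits within 200 bp -2.64. Both settings changed the membership, as given above. For NT2/D1 SOX2 that last comparison gave 9.67% against 8.14%, a difference of 1.53 points whose interval held 0 (-0.0171 to 3.17). The median width of the regions was 642 bp in the members, against 975 bp with all 3 factors, 775 bp with SOX2 and NANOG and 802 bp with OCT4 and NANOG. In a window of 401 bp around the H9 summit, the same for every class, the NANOG differences were -18.0, -6.48 and -3.16 points.

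Regions with SOX2 alone or OCT4 alone share with the members the lack of NANOG. NT2/D1 OCT4 lay in 36.6% of the members, against 8.26% of the regions with SOX2 alone and 10.9% of those with OCT4 alone. Within deciles of the matching H9 score the differences were 26 points (23.2 to 28.9) and 18.2 points (15.7 to 20.6). NT2/D1 NANOG lay in 3.47% of the members, against 1.90% and 2.49% (differences 1.57, 0.720 to 2.56, and 0.982 points, 0.198 to 1.94). Within the same deciles the NANOG differences were 1.08 (-0.717 to 2.88) and 0.458 (-0.578 to 1.49), intervals that hold 0. The second factor in H9 therefore went with more NT2/D1 OCT4, while a difference in NT2/D1 NANOG of more than 2.88 points lay outside both intervals.

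Among the members, the NT2/D1 OCT4 share varied with the strength of the H9 SOX2 peak far more than the NT2/D1 NANOG share. From the lowest to the highest quintile of the H9 SOX2 list by score, the share of members with NT2/D1 OCT4 was 25.8%, 31.0%, 36.8%, 43.6% and 67.2%. The share with NT2/D1 NANOG was 4.30%, 3.66%, 3.05%, 2.61% and 4.69%. In the regions with all 3 factors the OCT4 shares were 35%, 35.6%, 43.4%, 48.8% and 65.8%, and those of NANOG 10%, 9.79%, 11.2%, 13.9% and 36.5%. In the regions with SOX2 and NANOG the NANOG shares were 5.90%, 6.76%, 9.62%, 13.2% and 28.9%. In the highest quintile, 6 of 128 members had NT2/D1 NANOG (4.69%, 2.17 to 9.85), against 36.5% (34.9 to 38.1) and 28.9% (23.9 to 34.5). The members of the highest quintile lie at its lower end, since 22 of these 128 regions were in the upper 10% of the list. By quintiles of the H9 OCT4 score the members' NT2/D1 OCT4 shares were 25.5%, 25.5%, 30.4%, 35.7% and 53.5%, and the NANOG shares 2.60%, 2.75%, 3.64%, 3.68% and 3.84%. The other classes without H9 NANOG showed a like pattern at lower OCT4 shares. With OCT4 alone, the shares by OCT4 quintile were 6.77% to 29.6% for NT2/D1 OCT4 and 2.02% to 4.39% for NANOG. With SOX2 alone, they were 5.98% to 17.9% and 1.39% to 3.37% over the 4 lower SOX2 quintiles, and the highest held 15 regions.

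**Figure D3:**
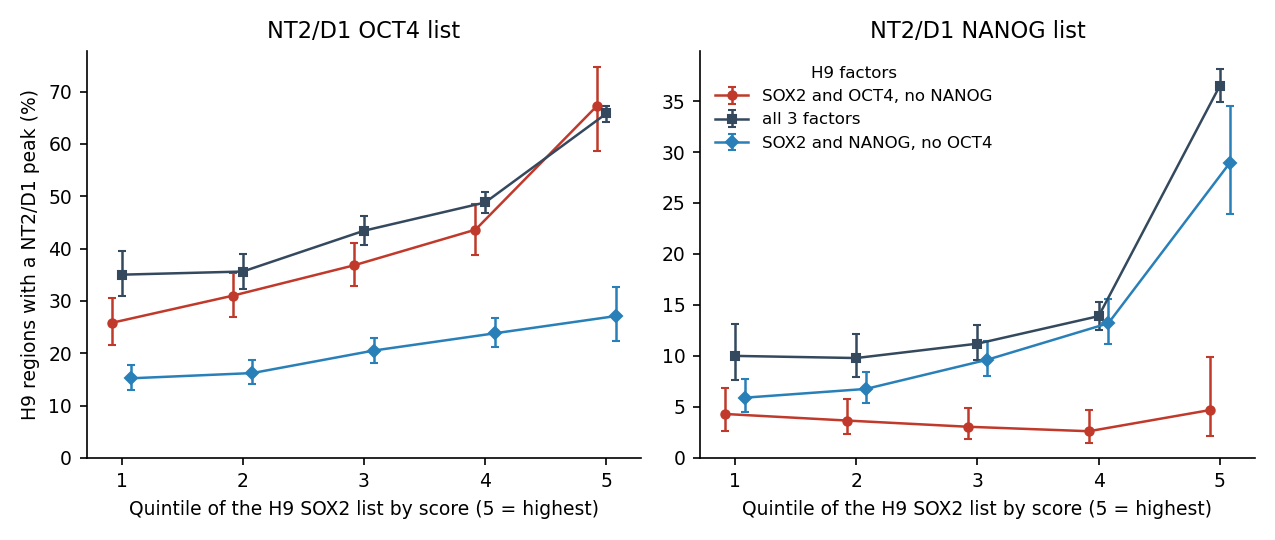
The share of regions (%) with a NT2/D1 OCT4 peak (left) or NANOG peak (right) is plotted by quintile of the H9 SOX2 list, from the lowest scores (1) to the highest (5), with 95% Wilson intervals. For the members OCT4 ranges from 25.8% to 67.2% while NANOG stays between 2.61% and 4.69%; with H9 NANOG present the NT2/D1 NANOG share is highest in the highest quintile.

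NT2/D1 NANOG was infrequent also among members with NT2/D1 OCT4, as in the other H9 classes without NANOG. Of the 686 members with NT2/D1 OCT4, 38 (5.54%, 4.06 to 7.51) also had NT2/D1 NANOG, against 35% of such regions with all 3 factors, 23.8% of those with SOX2 and NANOG and 17.0% of those with OCT4 and NANOG. The share was 7.12% with OCT4 alone and 9.41% with SOX2 alone. Of the 181 members with NT2/D1 SOX2, 25 (13.8%) had NT2/D1 NANOG, against 59.6%, 45.4% and 35%. Of those 181 members, 138 (76.2%, 69.5 to 81.9) also had NT2/D1 OCT4, against 84.4%, 51.6% and 56.7% in the same classes. In the reverse direction, of the 686 members with NT2/D1 OCT4, 20.1% had NT2/D1 SOX2, against 44.3% with all 3 factors (difference -24.2 points, -27.4 to -20.7) and 33.2% with SOX2 and NANOG (-13.1, -17.4 to -8.61). It was 16.1% with OCT4 and NANOG (4.07, 0.434 to 7.83).

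The NT2/D1 OCT4 and NANOG peaks in the members also differed in rank from those in the regions with all 3 factors. The 686 OCT4 peaks had a median percentile of 86.1 in the NT2/D1 OCT4 list (83.9 to 88.0) and a median fold of 11.2. That percentile was 91.1 in the regions with all 3 factors, 73.4 with SOX2 and NANOG and 77.0 with OCT4 and NANOG. The 65 NANOG peaks had a median percentile of 57.9 (40.4 to 68.8), against 91.1, 86.7 and 65.7, the last inside that interval. In the other classes without H9 NANOG it was much the same, 58.5 with SOX2 alone and 59.2 with OCT4 alone. Positions matched closely: the NT2/D1 OCT4 summit was a median of 27 bp from the H9 OCT4 summit, and 568 of 686 (82.8%) were within 100 bp.

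Among the members, close H9 summits went with NT2/D1 OCT4. It lay in 43.3% (40.5 to 46.2) of the 1175 members with SOX2 and OCT4 summits within 50 bp and in 22.4% (16.7 to 29.2) of the 170 with summits over 200 bp apart. It lay in 51.0% of the 478 members with both false discovery rates at most 5% and in 31.7% of the other 1394. NT2/D1 NANOG was at 3.77% and 3.37% in these last groups. The part of peak strength in the first difference was not tested.

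The 8 strongest members with SOX2 and OCT4, and no NANOG, in NT2/D1 as in H9 included those near TCIM, WEE1, NDUFV2, WSB1, KCNN2, FLJ42709 and FOXI3. The region 49.9 kb from KCNN2, a calcium-activated potassium channel, had 13.2-fold SOX2 and 12.7-fold OCT4 enrichment in H9 and 10.3-fold and 26-fold in NT2/D1. The region 8.67 kb from FOXI3, a forkhead factor of ectodermal appendages and ear, had 11.2-fold and 8.51-fold in H9 and 8.02-fold and 18.5-fold in NT2/D1.

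A few strong members had a NANOG peak in NT2/D1. The strongest of the 65 was 27.9 kb from SLCO3A1, an organic anion transporter, with all 3 factors in NT2/D1 at 11.3-fold (SOX2), 9.77-fold (OCT4) and 7.68-fold (NANOG). A region 0.995 kb from a TSS of SOX5, a SOX factor of neural and cartilage development, had a 6.48-fold NT2/D1 NANOG peak, and its nearest H9 NANOG peak was 2.71 kb away. A region 0.467 kb from IER5L had all 3 NT2/D1 factors, with NANOG at 5.42-fold but only at the 10.3 percentile of its list. The other 5 of the 8 strongest were near DDR2, a collagen receptor, AKR1D1, CCDC33, PDS5A, a cohesin cofactor, and RASGRP3. The 8 strongest members with no NT2/D1 peak of any factor were near TMEM47, CTNND2, BMP5, RRAS2, a Ras-family GTPase, SLC2A14, a glucose transporter, ATXN8OS, KCNA4, a potassium channel, and KCTD3. The RRAS2 region, 9.98 kb from the TSS, had 9.87-fold SOX2 and 7.62-fold OCT4 enrichment in H9, and the ATXN8OS region lay 0.058 kb from a H9 NANOG peak.

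The lack of a NANOG call can be a near miss, and the values beside that threshold are as follows. The member closest to a H9 NANOG peak, 41.5 kb from CD2, was 27 bp from it; those near C5orf47 and DOCK10 were 36 bp and 41 bp away. On the other side, regions near SFXN1, FAR2 and ANKRD50 had a NANOG peak with the lowest possible score of 30 and so belong to the regions with all 3 factors. In those regions the NANOG score was under 40 in 576 and under 50 in 1166 of 8196. A H9 NANOG peak lay within 1 kb of 143 members (7.64%) and within 5 kb of 413 (22.1%), and the median distance was 21.8 kb. Regions with OCT4 alone had a median of 21.9 kb and regions with SOX2 alone of 26.9 kb. The share with NT2/D1 NANOG was 2.80% (1.09 to 6.97) in the 143 members within 1 kb and 3.11% (1.92 to 4.99) in the 515 with no H9 NANOG peak within 50 kb.

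Most members were distal. Their median distance to a TSS was 60.5 kb, 1019 (54.4%) were beyond 50 kb and 193 (10.3%) beyond 500 kb. Within 1 kb of a TSS lay 142 (7.59%, 6.47 to 8.87), beside 9.06% of all H9 regions. That share was above the 4.42% of the regions with all 3 factors (difference 3.17 points, 2.0 to 4.52) and the 3.61% of those with SOX2 and NANOG (3.97, 2.71 to 5.36). It was below the 15.6% of those with OCT4 and NANOG (-8.01, -9.64 to -6.31). NT2/D1 OCT4 lay in 71 of the 142 members within 1 kb of a TSS (50%, 41.9 to 58.1), in 37.4% of those between 1 and 50 kb and in 34.2% (31.4 to 37.2) of those beyond.

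**Figure D4:**
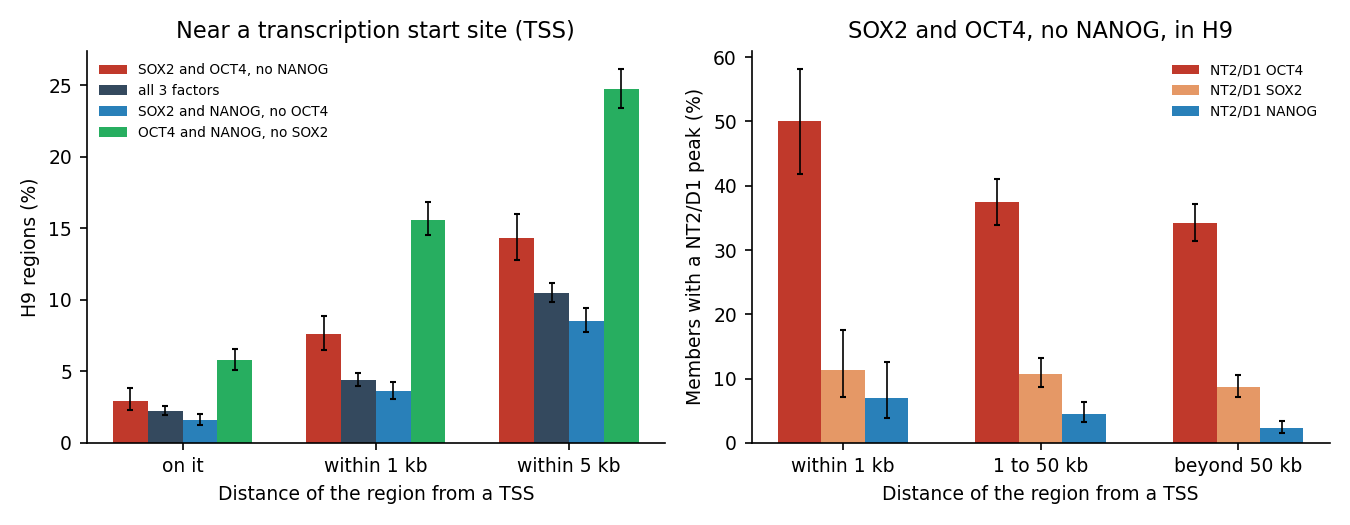
Left, the share of H9 regions (%) on a TSS, within 1 kb or within 5 kb of one, for the members and the other classes with at least a pair of factors; right, the share of members (%) with each NT2/D1 peak by distance from a TSS; error bars are 95% Wilson intervals. Within 1 kb the members (7.59%) lie between the regions with all 3 factors (4.42%) and those with OCT4 and NANOG (15.6%), and NT2/D1 OCT4 is most frequent there (50%).

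The strongest promoter member overlapped the TSS of H4C9, at chr6:27106760-27108255 (hg19), with 144 SOX2 tags (7.13-fold) and 70 OCT4 tags (5.12-fold) in H9 and a 20.4-fold OCT4 peak in NT2/D1. Histone genes are near-identical copies, and reads can be split or misplaced among them, so this value is uncertain. The region over the TSS of NDUFS7, a subunit of respiratory complex I, had 4.62-fold SOX2 and 4.40-fold OCT4 in H9 and 7.21-fold OCT4 in NT2/D1. The region over the TSS of KNL1, a scaffold of the kinetochore, had 5.09-fold and 5.51-fold in H9 and 13.7-fold OCT4 in NT2/D1. At RFX4, whose promoter is printed above, NT2/D1 had SOX2 (9.37-fold) and OCT4 (9.56-fold), and a H9 NANOG peak lay 0.237 kb away. At MTF2 the H9 SOX2 peak of 175 tags was at the 95.8 percentile of its list but the OCT4 peak of 71 tags at the 32.7 percentile. Regions 0.586 kb from MALAT1, an abundant nuclear noncoding RNA, and 0.83 kb from WDR74 had 147 and 334 SOX2 tags.

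Of 19452 genes in the files, 797 (4.10%) were the nearest gene to a member within 50 kb. A region with all 3 factors lay near 215 of these 797 (27%), beside 13.9% of all genes, and 582 genes had a member and no such region. Only 43 genes had more than 1 member. The highest number, 3, was reached at H4C8, PRSS16 and SCAND3, all on chromosome 6, and at SORBS2. Against the 4.10%, 45 of 456 genes in 18 lists of pathways and cell types had a member (9.87%, 7.46 to 13.0), and 177 (38.8%) had a region with all 3 factors.

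A member lay within 50 kb of 3 of the 40 core pluripotency genes (7.5%, 2.58 to 19.9), beside 4.10% of all genes, which the interval holds. A region with all 3 factors lay near 30 of the 40, beside 13.9% of all genes. The 3 were L1TD1, an RNA-binding protein of stem cells, TRIM71, a target of the let-7 microRNAs, and PRDM14, a PR-domain regulator of pluripotency. Their regions had 4.38-fold (L1TD1), 3.64-fold (TRIM71) and 3.25-fold (PRDM14) SOX2 enrichment and 4.85-fold, 3.16-fold and 5.22-fold OCT4 enrichment in the same order, and none had a NT2/D1 peak. The nearest H9 NANOG peak was 1.03 kb, 0.434 kb and 11.1 kb away, again in that order. Of the signalling lists, 2 of 35 Nodal, TGF-beta and BMP genes (SMAD2, TGIF1), 1 of 24 FGF and ERK genes (SOS1), 2 of 30 WNT genes (FZD5, TCF7L2), 3 of 18 Notch genes (DLL1, NOTCH1, RBPJ) and 2 of 18 Hippo genes (CCN2, TEAD4) had a member. The DLL1 region, 5.25 kb from this Notch ligand, had 7.98-fold SOX2 and 8.30-fold OCT4 in H9 and 7.55-fold and 11.8-fold in NT2/D1.

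A member lay near 11 of 42 neuroectoderm genes (26.2%, 15.3 to 41.1), the highest share among the 18 lists. Other classes were also frequent near this list: 28 of the 42 genes had a region with all 3 factors, and 29 had a region with OCT4 and NANOG, beside 1907 of all 19452 genes. The 11 were DLX5, EN1, GBX2, LHX2, MEIS1, POU3F3, SIX3, SIX6, SOX21, ZEB2 and ZFHX3, transcription factors of neural patterning and differentiation. The region 8.13 kb from GBX2, which positions the midbrain and hindbrain border, had 10.2-fold SOX2 and 7.87-fold OCT4 in H9 and a 19.6-fold OCT4 peak of 107 tags in NT2/D1. The region 3.70 kb from SIX3, a forebrain and eye regulator, had 7.83-fold and 5.62-fold in H9, but a H9 NANOG peak lay 0.236 kb away. At SOX21, a SOX factor of neural progenitors, a region 2.35 kb away had 5.66-fold SOX2 and 5.42-fold OCT4 and no NT2/D1 peak. The SOX2 and OCT4 summits of this region were 700 bp apart, and a H9 NANOG peak lay 1.33 kb away. Within 5 kb of the TSS the count for this list was 6 of 42, beside 261 of all 19452 genes. The extent of empty sequence around these genes was not matched.

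The trophectoderm list was close behind in share, with 4 of 17 genes (23.5%, 9.56 to 47.3), beside 4.10% of all genes. These were GCM1, TEAD4, TFAP2A and TFAP2C, and differences between lists were not tested. A region with all 3 factors lay near 10 of the 17, beside 13.9% of all genes. The counts of the lists that follow stand beside the same 4.10%. The other developmental lists had 3 of 21 mesendoderm genes (PDGFRA, SOX17, TBXT), 3 of 38 HOX genes, 2 of 19 germ cell genes (SOX17, TFAP2C) and 5 of 42 adhesion and axon guidance genes (ITGA6, NRP2, PLXNA2, ROBO1, TENM2). TFAP2C, which serves trophectoderm and germ line, had a region 4.05 kb away with 4.87-fold SOX2 and 4.38-fold OCT4. Its H9 SOX2 peak was close to the calling threshold, at the 3.38 percentile of the list, and so was that of the TEAD4 region. PDGFRA, a growth factor receptor of mesoderm, had a region 48.8 kb away with 4.63-fold and 4.57-fold in H9 and an 18.3-fold OCT4 peak in NT2/D1. Of 38 chromatin regulators 3 had a member (MTF2, REST, RNF2), and of 22 cell cycle genes 1 (CDK6). REST silences neuronal genes outside neurons, and its region, 33.1 kb away, had 6.52-fold SOX2 and 6.81-fold OCT4 in H9 and 11.0-fold OCT4 in NT2/D1. Lists of other cell types had 1 of 19 hepatocyte genes (TAT), 1 of 18 muscle genes (DES), 1 of 16 fibroblast genes (COL6A1) and 0 of 16 immune genes.

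**Figure D5:**
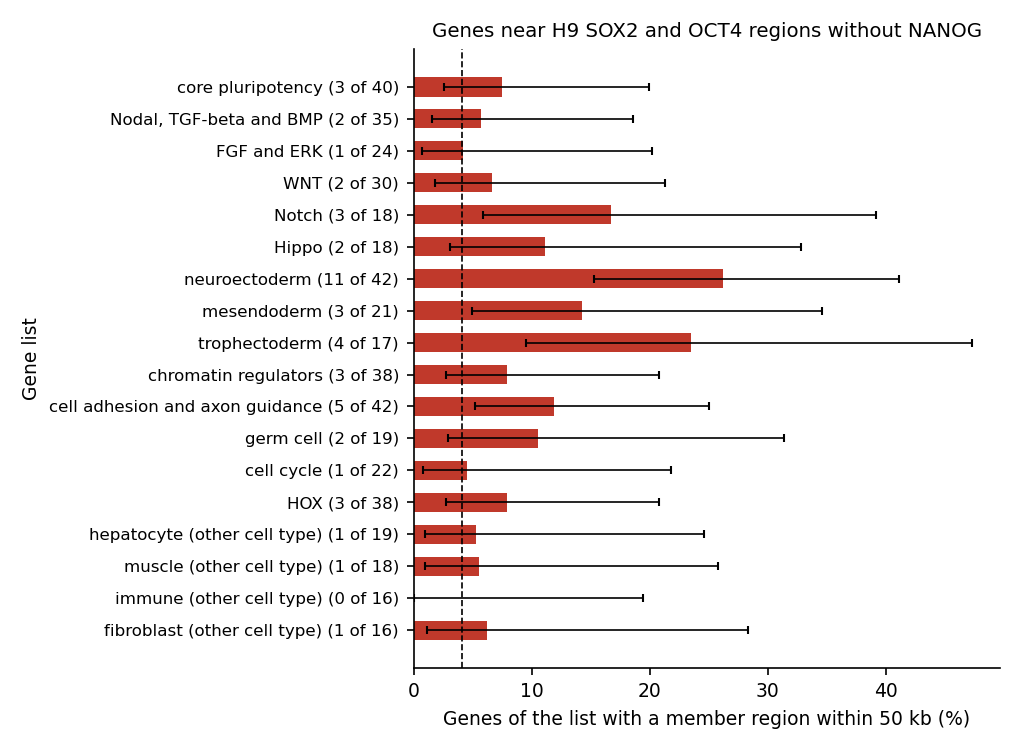
Bars give the share of the genes of each list (%) that are nearest to a member within 50 kb, with the counts beside the name, and error bars are 95% Wilson intervals; the dashed line is the share of all 19452 genes (4.10%). The neuroectoderm list reaches 26.2% and the core pluripotency list 7.5%, and most intervals include the line.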

How the data were processed

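SOX2, OCT4 and NANOG ChIP-seq peak lists of H9 and NT2/D1 were analysed, 6 of 8 samples, grouped by title. The authors mapped SOLiD reads to hg19, per the submitters' processing notes, and called peaks per library with MACS against an IgG library, per the file headers; aligner and caller version are not stated in the sources used. The tag size was 50 and the p-value cutoff 1.00e-03. Band widths of 2000 (H9) and 200 (NT2/D1) and a model fold of 3 (5 for NT2/D1 OCT4) were set. The control had 58012070 unique tags for all H9 lists. It had 2937004 for NT2/D1 SOX2 and NANOG and 6479071 for NT2/D1 OCT4, so NT2/D1 lists are not on one footing. The series holds a single NT2/D1 IgG sample, and the source of the unequal counts is not stated in the headers.

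Tag counts were deposited as whole numbers of ChIP tags without normalization. The fold is a ratio to background computed by the authors. False discovery rates were deposited in percent. The score column had lost its name in the deposited lists; it was taken for -10 times log10 of the p-value, since its lowest value was 30 in every list. These authors' values describe and rank peaks within a list only.

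Peaks sharing 1 bp were merged (Python 3.11.15, pandas 2.3.3, numpy 2.4.6, scipy 1.17.1, matplotlib 3.10.9), and merging and intervals were checked on simulated data. Shares carry 95% Wilson intervals and differences 95% Newcombe intervals; stratified differences were averaged over 10 deciles of score, weighted by the number of members, with a normal interval. Tags without molecular identifiers and neighbouring regions are not independent, so intervals cover counting error only. No p-value was computed. A region took the closer of the genes that the deposited lists give on its 2 sides; 23834 of 25014 accessions (95.3%) were matched to RefSeq for symbols. Named regions had the highest value of the lower H9 percentile: 15 in all, 8 with NT2/D1 SOX2 and OCT4 only, 8 with NT2/D1 NANOG, 8 with no NT2/D1 peak and 10 near a TSS, with up to 4 genes per list, the 5 genes with most members, and 3 regions on either side of the NANOG threshold. A gene that this rule names is not reported here. Regions are in hg19; promoters are in GRCh38.p14 and were joined by gene only. Sequences of the regions themselves were not used here. The members and the gene lists were chosen with earlier results of these data known.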

Additional observations from a re-analysis of the deposited data

How the results depend on the processing

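No paired analysis was possible because each factor and line had 1 library. Of 164 differences recomputed, 151 kept their sign and their side of 0. The exchange of the NT2/D1 OCT4 and NANOG libraries, the reading of the source names, gave NT2/D1 OCT4 in 3.47% and NANOG in 36.6% of the members. It reversed 4 differences: OCT4 became -6.80 points against SOX2 and NANOG and -4.41 against OCT4 and NANOG, and NANOG became 17.1 and 7.91. The NT2/D1 SOX2 difference from OCT4 and NANOG, 1.53 points with 0 inside its interval, excluded 0 under 8 alternatives: 2.64 for the upper 50% of each list by score, 1.66 for lists of equal length, 1.55 with the 3 H9 lists merged alone, 2.44 for a reciprocal overlap of 50%, 3.21 for summits within 200 bp, 1.70 without members within 1 kb of a H9 NANOG peak, 4.01 without the widest 1% of peaks and 2.13 in a fixed window of 401 bp. The NT2/D1 SOX2 difference from SOX2 and NANOG held 0 without the widest 1% (-0.942, -2.65 to 0.848). The upper 50% left 1115 members, with OCT4 in 43.9%, NANOG in 2.51%, any NT2/D1 peak in 46.1% and 6.01% near a TSS. Lists of equal length gave SOX2 in 7.81%, OCT4 in 32.4% and any in 34.8%. Reciprocal overlap gave OCT4 in 39.2% and any in 42.7%. Summits within 200 bp gave SOX2 in 11.5%, OCT4 in 39.2%, NANOG in 5.26% and any in 43.5%. Without the widest 1%, SOX2 was in 12.2% and NANOG in 6.14%. As given above, this setting and that of summits within 200 bp can count regions with a H9 NANOG peak as members. With H9 NANOG peaks of score 40 or more, NANOG was in 4.58%. With 5 kb in place of 1 kb, 14.3% of the members were near a TSS, and 19 list genes had a member in place of 45 within 50 kb. The fixed window and the NANOG score were added after seeing the data. The number of members ranged from 1115 to 2445, and the cause of these shifts was not tested. The NT2/D1 lists rest on fewer tags than those of H9, so a missing NT2/D1 peak does not show an unbound site. Peak counts of 1 library per factor cannot tell the line from the library.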

Other observations

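Histone genes recurred among the members at promoters, a group chosen after its values were seen and uncertain because its genes are near-identical copies. Of 55 genes with a TSS inside a member, 6 (10.9%, 5.10 to 21.8) were histone genes (H3C15, H3C2, H3C8, H4C11, H4C12 and H4C9). The share was 11.0% with all 3 factors (20 of 182), 5.97% with SOX2 and NANOG (4 of 67) and 0% with OCT4 and NANOG (0 of 223, up to 1.69%). The regions at H3C2, H3C8 and H3C15 had 3.65-fold, 3.32-fold and 3.22-fold SOX2 enrichment in H9 and no NT2/D1 peak. Between 26 and 29 Mb of chromosome 6 (hg19), where the main histone cluster lies, there were 32 members (1.71% of all members, 1.21 to 2.40), against 1.05%, 0.189% and 0.337% of the regions in the same classes. Of these 32, 12 had NT2/D1 OCT4, 1 had NT2/D1 SOX2 and 0 had NT2/D1 NANOG. This window held 210 H9 regions in all.

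The share of members with NT2/D1 OCT4 was highest on chromosome 21, at 57.7% (15 of 26, 38.9 to 74.5), and lowest on chromosome 18, at 23.1% (12 of 52, 13.7 to 36.1), beside 20.7% and 15% of all H9 regions on these chromosomes. These are the extremes of 23 chromosomes, chosen after their values were seen, on few regions, and a difference over chromosomes was not tested. Members made up 4.08% (3.47 to 4.78) of the H9 regions of chromosome 6 and 1.57% (1.02 to 2.42) of those of chromosome 19, beside 3.37% of all H9 regions. These too are the extremes of the 23 chromosomes, chosen after their values were seen.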
